A study of Mus musculus with 18 samples.

Results

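Macrophages that live in the dorsal root ganglion (DRG), the cluster of sensory neuron cell bodies beside the spinal cord, were followed through 10 marker genes: *Cd68*, *Aif1*, *Adgre1*, *Mrc1*, *Cd163*, *C1qa*, *C1qb*, *C1qc*, *Lyve1* and *Cd14*. The genes were taken by name from the deposited table of 36737 genes, and 10 of 10 were found and passed the filter on low counts in every comparison. The libraries came from bulk L3–L5 DRG of adult CD1 mice, an outbred strain, with 6 mice in each of 3 groups and 3 males and 3 females per group. Sham mice had surgery without fracture, fracture mice had a tibial fracture with vehicle, and fracture plus PDX mice had a tibial fracture with protectin DX (PDX), a lipid mediator made from docosahexaenoic acid. Ganglia of both fracture groups were taken on day 3, and no group carried a transgene or a deleted gene. The day for the sham mice and the PDX dose for these mice are not given in the sources used here.

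Tissue macrophages engulf dead cells and debris, sense microbial and damage signals, and in the DRG lie around neuronal cell bodies and along vessels. Their survival depends on the receptor CSF1R, which is bound by CSF1 and IL-34. The markers cover different parts of this work. CD68 is a glycoprotein of the lysosome, IBA1 (*Aif1*) bundles actin in ruffles and phagocytic cups, and F4/80 (*Adgre1*) is the adhesion receptor that most often identifies mouse macrophages. CD206 (*Mrc1*) takes up mannosylated glycoproteins, CD163 takes up hemoglobin bound to haptoglobin, and LYVE1 binds hyaluronan on perivascular macrophages and on lymphatic endothelium. C1q, made of A, B and C chains, starts the classical complement pathway, and CD14 presents lipopolysaccharide to TLR4. None of these genes is restricted to resident macrophages, since monocytes that enter a tissue can express several of them.

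Each library held between 63235040 and 82824942 counts on genes, and the markers had between 95 (*Aif1*) and 1614 (*Mrc1*) counts per library. The DRG origin showed in 8 of 8 neuron genes counted in every library, with a summed level of 6988 to 8522 CPM (counts scaled to a common library size by edgeR's TMM method). Of 30 further genes of tissue macrophages, 29 were counted in every library, the exception being *Timd4*. Transcripts of other tissues were also present. The summed level of 8 placental genes was 155 to 511 CPM in sham, 26.8 to 238 CPM in fracture and 26.1 to 125 CPM in fracture plus PDX mice, males included, and 7 of these 8 genes were counted in every library. The 8 skeletal muscle genes summed to 24.4 to 592 CPM in sham, 49.8 to 1150 CPM in fracture and 12.4 to 531 CPM in fracture plus PDX mice. The 14 neutrophil genes summed to 100 to 427, 107 to 221 and 95.8 to 540 CPM in the same order.

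**Figure D1:**
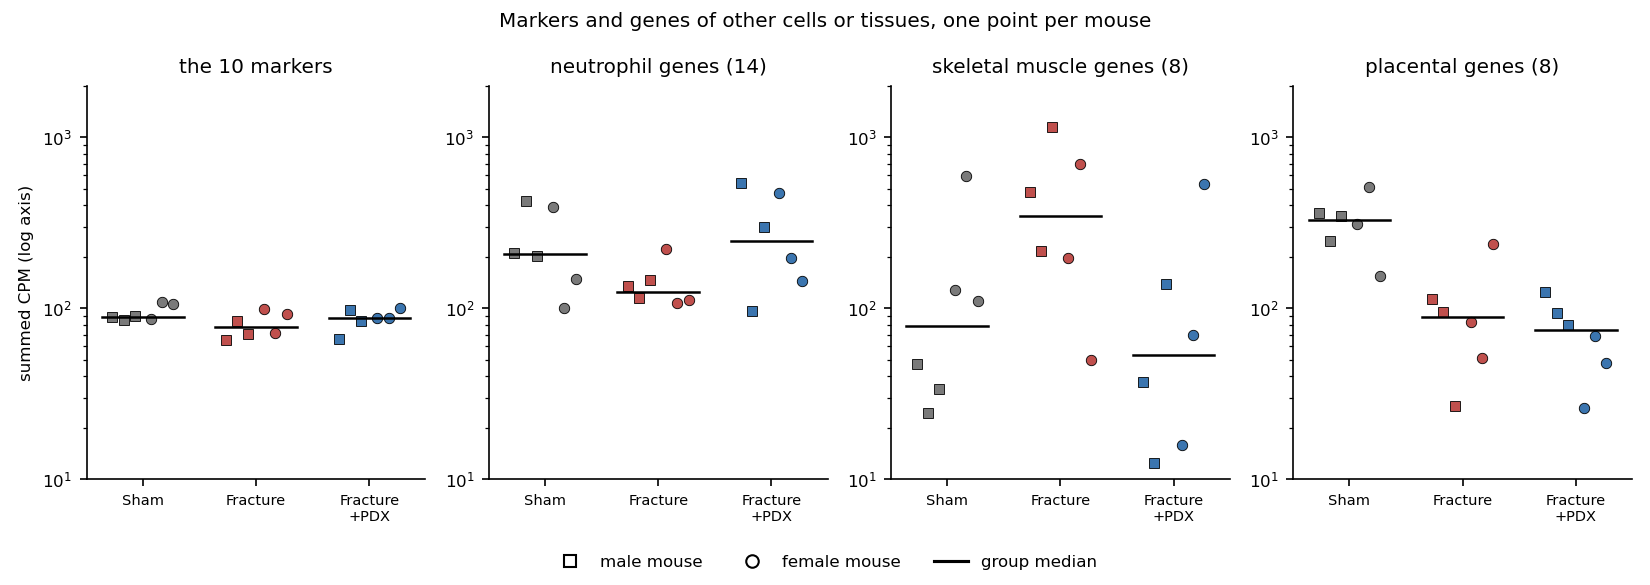
Summed CPM on a log axis of the 10 markers and of 3 lists of genes from other cells or tissues, 1 point per mouse, with squares for males, circles for females and a line at the group median. The placental genes were at 155 CPM or more in each sham mouse, the muscle genes had their highest value of 1150 CPM in a fracture mouse, and the markers stayed between 65.5 and 109 CPM.

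The markers were of middling abundance in sham DRG. On the FPKM scale, which divides by transcript length and so allows genes to be compared, the chains of C1q led with 13.3 ± 1.79 (SD, n = 6) for *C1qa*, 9.12 ± 1.07 for *C1qb* and 5.80 ± 0.597 for *C1qc*. *Cd68* followed with 5.31 ± 0.529 FPKM, and its range overlapped that of *C1qc*. *Mrc1*, *Cd14*, *Lyve1*, *Aif1*, *Adgre1* and *Cd163* came next with mean FPKM of 2.68, 2.63, 2.25, 1.97, 1.75 and 1.31, and each of them overlapped its neighbor in that order. Neighbors did not overlap only between *C1qa* and *C1qb*, between *C1qb* and *C1qc* and between *Cd68* and *Mrc1*. Among all genes kept for the 18 libraries, *C1qa* lay at the 83.4th and *Cd163* at the 40.9th percentile of sham FPKM.

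Mice of the same group and sex differed most in *Aif1* and *Cd163*, with pooled SDs of 0.57 and 0.53 on the log2 CPM scale. *Mrc1* had the lowest, 0.19, and the others lay between 0.22 (*Adgre1*) and 0.30 (*C1qc*). Set beside the 1000 genes closest in level, the spread of *Cd163* was at the 93.6th percentile, that of *C1qa* at the 91.4th, that of *Aif1* at the 90.8th, that of *C1qc* at the 90.4th, that of *Mrc1* at the 85.9th and that of *C1qb* at the 85.7th, so that *Mrc1* varied more than most genes of its level. *Cd68* was at the 72.5th, *Lyve1* at the 63.4th, *Cd14* at the 58.0th and *Adgre1* at the 51.6th.

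**Figure D2:**
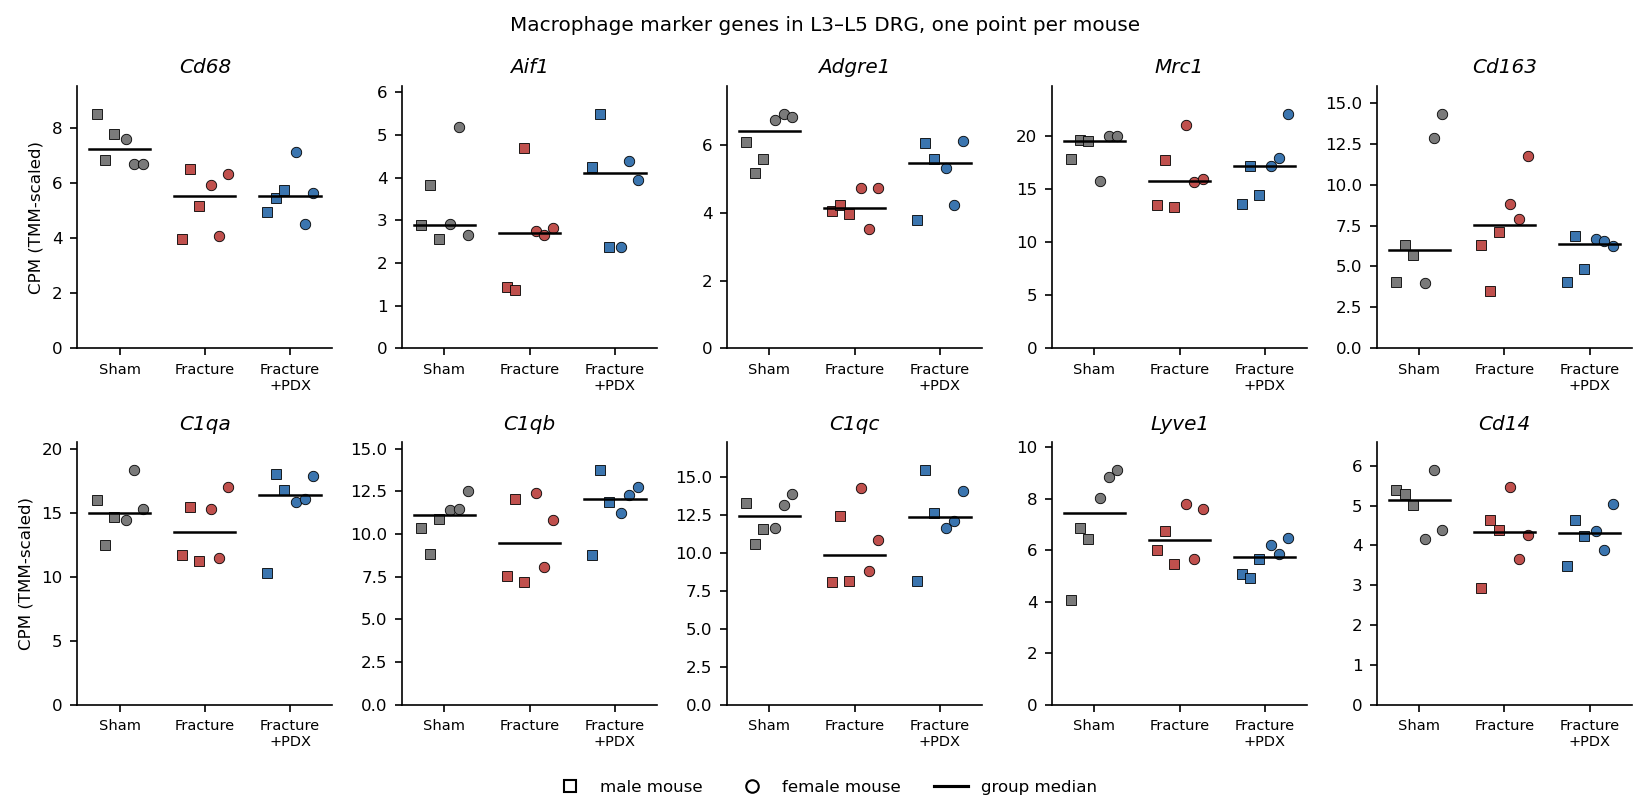
CPM (TMM-scaled, axes from 0) of each marker in the 18 mice by group, with squares for males, circles for females and a line at the group median. *Adgre1* and *Cd68* are the markers whose fracture mice all lie below the sham mice, and *Cd163* has its 2 highest values, 14.3 and 12.9 CPM, in female sham mice.

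*C1qb*, *C1qc* and *C1qa* lie next to each other in that order on chromosome 4 (GRCm38, minus strand), from 136880129 to 136886187, from 136889804 to 136893065 and from 136895917 to 136898803. Their products are joined in the same C1q molecule, and their transcripts kept a steady proportion in these mice. The FPKM ratio of *C1qb* to *C1qa* was 0.598 to 0.813 over the 18 libraries (median 0.678), and that of *C1qc* to *C1qa* was 0.342 to 0.501 (median 0.422). The median ratio of *C1qb* to *C1qa* was 0.690 for sham, 0.644 for fracture and 0.704 for PDX mice, and the ranges of the groups overlapped. In deviations from the means of group and sex, *C1qb* and *C1qc* correlated at r = 0.94 (n = 18, permutation p = 1e-05, adjusted p = 0.00024; rho = 0.92, p = 1e-05). Leaving out the 2 farthest libraries gave r = 0.92. This p is the smallest that 100000 permutations can give. The permutations treated the 18 deviations as independent although means of group and sex had been removed, so the permutation p-values are too small. *C1qa* correlated with *C1qc* at r = 0.87 (permutation p = 1e-05, adjusted p = 0.00024; rho = 0.86; r = 0.77 without the 2 farthest) and with *C1qb* at r = 0.84 (permutation p = 3e-05, adjusted p = 0.00036; rho = 0.80; r = 0.75).

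**Figure D3:**
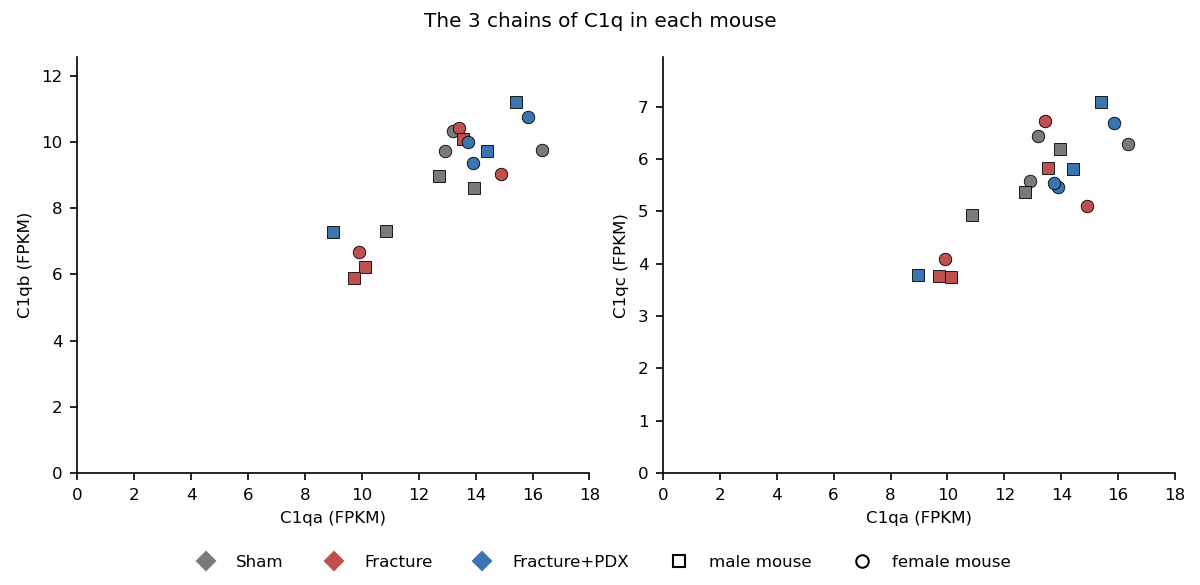
FPKM of *C1qb* (left) and *C1qc* (right) against FPKM of *C1qa* in the 18 mice, colored by group, with squares for males and circles for females and all axes from 0. The points of the 3 groups lie along the same band. A fracture plus PDX male had the lowest *C1qa* of the 18 mice, 8.97 FPKM, and the highest ratio of *C1qb* to *C1qa*, 0.813.

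The sequence before the starts of markers was searched for the purine-rich letters AGGAAGT on both strands, a core that the macrophage transcription factor PU.1 binds. RefSeq promoter windows (GRCm38.p6, 250 bases before to 50 after the start) were at hand for 6 of the 10 markers, *Mrc1*, *C1qb*, *C1qc*, *Cd163*, *Cd68* and *Aif1*. *C1qa* had no window and was not searched, so the matches do not cover all chains of C1q. The letters occurred in 3 of these 6 windows, and in 9.57% of 27025 windows of the same length over all genes. The longer GAGGAAGT, which contains the shorter motif, occurred in *C1qc* alone of the 6 and in 3.28% of all windows. In the 3 windows, shown because they hold the match, it lay on the opposite strand, so the sequence in the gene's own direction reads ACTTCCT, given in capitals within 30 bases. Distances are counted to the RefSeq start, at 14229414 for *Mrc1*, 136886200 for *C1qb* and 136892914 for *C1qc*, and to the start in the deposited table, which differs from it.
*Mrc1*, chr2:14229192-14229221, plus strand, 211 bases before the RefSeq start and 189 before the deposited start: cacttctccccACTTCCTgcgttttctcct
*C1qb*, chr4:136886235-136886264, minus strand, 53 bases before the RefSeq start and 66 before the deposited start: caggacctgaaACTTCCTgagggcagcagg
*C1qc*, chr4:136893091-136893120, minus strand, 195 bases before the RefSeq start and 44 before the deposited start: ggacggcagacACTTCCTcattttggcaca
These matches describe the letters in the windows, and binding was not measured.

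F4/80 (*Adgre1*) was lower in fracture than in sham mice, and *Cd68* lay below its sham range in every fracture mouse. The other 8 markers had lower fitted values that did not pass the test. Sham mice also had more placental transcripts, and their day of collection is not given, so these differences cannot be told apart from fracture. *Adgre1* (ENSMUSG00000004730, chromosome 17, plus strand, from 57358691 to 57483527) was at 5.17, 6.42 and 6.92 CPM (lowest, median and highest of 6) in sham mice and at 3.52, 4.15 and 4.75 CPM in fracture mice. Every fracture mouse lay below every sham mouse. Its level fell by 0.56 on the log2 scale with fracture (SE 0.098, adjusted p = 0.0139, edgeR's quasi-likelihood test with Benjamini-Hochberg adjustment over all genes), a change of -32.0% (95% interval -41.2% to -21.3%). The exact permutation test of 6 against 6 mice gave p = 0.00216, which is the smallest p that it allows.

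*Cd68* (ENSMUSG00000018774, chromosome 11, minus strand, from 69664213 to 69666153) was at 6.69, 7.21 and 8.49 CPM in sham and at 3.95, 5.54 and 6.49 CPM in fracture mice. These groups did not overlap either, and the exact permutation test again gave p = 0.00216. Its log2 difference of -0.46 (SE 0.14) had an adjusted p of 0.0819 in edgeR and of 0.0187 in DESeq2, so its call depends on the tool. With 3 against 3 mice of a sex, the exact test cannot give a p below 0.1.

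Over the 20659 genes tested between fracture and sham, edgeR called 2.92%, which were 225 higher and 378 lower genes, and DESeq2 called 1511 genes. Of the 10 markers, edgeR called 1 and DESeq2 2. All 10 had a log2 difference below 0 in edgeR, as did 49.3% of all genes tested. The median of the markers was -0.23, and that of all genes was 0.0021. Groups that did not overlap, with fracture lower, were found for 2 of the 10 markers and for 1.53% of the genes tested. In bulk tissue, fewer macrophages and less RNA of these genes per macrophage cannot be told apart.

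The remaining 8 markers did not pass the test in either tool. *C1qa*, *C1qb* and *C1qc* had log2 differences of -0.15 (95% interval -0.39 to 0.09), -0.17 (-0.46 to 0.12) and -0.25 (-0.53 to 0.04), and 3 of 6 fracture mice lay below all sham mice for each of them. For *C1qc*, 1 fracture mouse lay above all sham mice. The sign of *C1qa* turned with the placental genes as a covariate. *C1qa* was at 12.5, 15.01 and 18.3 CPM in sham and at 11.3, 13.5 and 17.1 CPM in fracture mice. The groups overlapped for each C1q chain. *Mrc1* (chromosome 2, plus strand, from 14229392 to 14332057) was at 15.8, 19.6 and 20.05 CPM in sham and at 13.3, 15.8 and 21.1 CPM in fracture mice, with a log2 difference of -0.22 (-0.44 to 0.01). *Cd14* (chromosome 18, minus strand, from 36725067 to 36726798) had a log2 difference of -0.25 (-0.56 to 0.07).

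*Aif1*, *Lyve1* and *Cd163* gave the least evidence of a difference with fracture. *Aif1* (chromosome 17, minus strand) was at 2.57, 2.90 and 5.18 CPM in sham and at 1.36, 2.70 and 4.70 CPM in fracture mice, and its log2 difference of -0.34 had an interval from -0.98 to 0.29. The deposited entry of *Aif1* runs from 35170991 to 35173278, while GENCODE M21 extends the gene to 35176068, and the bounds of the other 9 markers were the same in both. *Lyve1* (chromosome 7, minus strand, from 110850607 to 110863239) had a log2 difference of -0.11 (-0.41 to 0.18). *Cd163* (chromosome 6, plus strand, from 124304656 to 124330527) was at 3.96, 6.00 and 14.3 CPM in sham and at 3.50, 7.53 and 11.7 CPM in fracture mice. Its log2 difference was -0.02 (-0.67 to 0.62), and its sign turned under other settings.

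**Figure D4:**
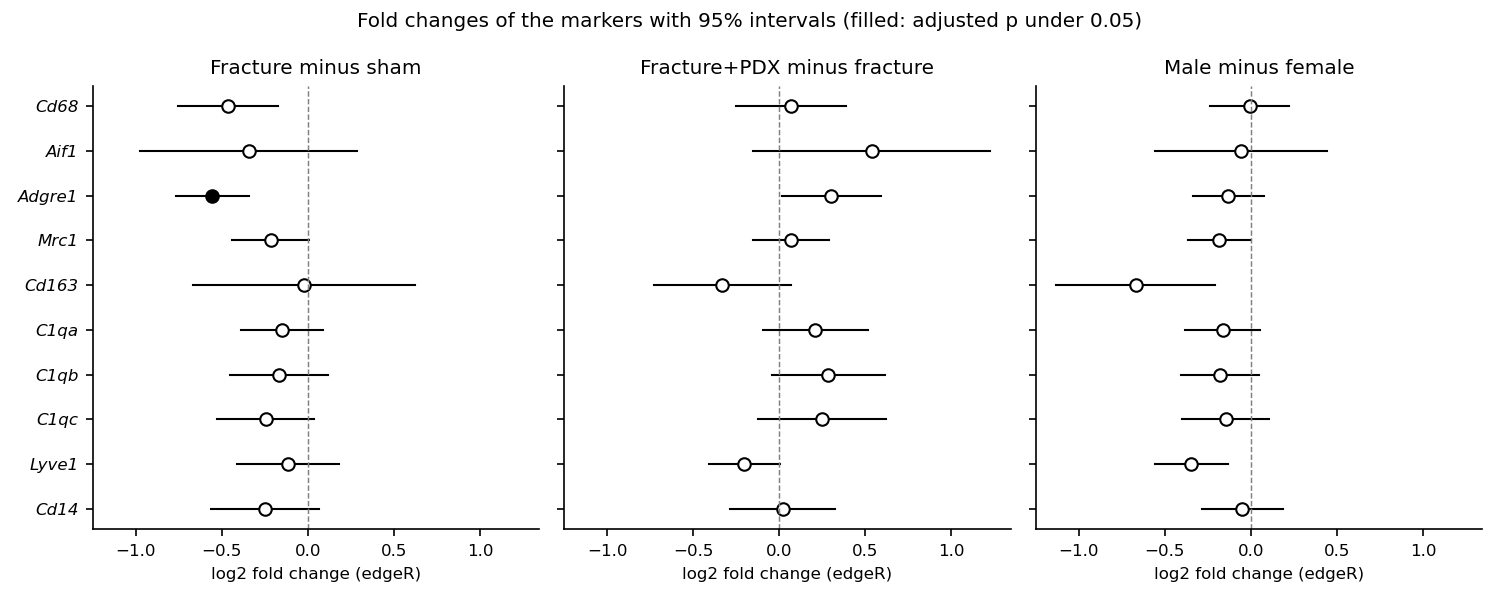
Log2 fold changes of the 10 markers in edgeR with their 95% intervals for 3 comparisons, with a filled point for an adjusted p under 0.05. The filled point is *Adgre1* at -0.56 with fracture, and the interval of *Cd163* reaches from -1.13 to -0.21 between males and females.

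The placental genes moved with the same contrast, with 8 of 8 lower in fracture than in sham mice, a median log2 difference of -1.73, and 2 called by edgeR and 5 by DESeq2. Muscle genes were higher in fracture mice for 8 of 8 genes with a median of 2.11, and 0 of them were called by edgeR and 1 by DESeq2. Neutrophil genes were lower for 14 of 14 with a median of -0.78, and edgeR called 1 and DESeq2 2. The gene that edgeR called was *Cxcr2*, at 3.88 ± 1.37 CPM in sham and 1.64 ± 0.455 CPM in fracture mice (edgeR, adjusted p = 0.0171). With the mean of the placental genes as a covariate, chosen after seeing the data, the log2 difference of *Adgre1* was -0.45 (edgeR, adjusted p = 0.701), that of *Cd68* was -0.28 (edgeR, adjusted p = 0.837), and 1 of all genes was called. In that fit *C1qa* was at 0.15, above 0. The placental genes summed to 155 to 511 CPM in sham and to 26.8 to 238 CPM in fracture mice. The placental covariate thus largely followed the groups, and its part cannot be told apart from that of fracture. With the mean of the muscle genes as a covariate, *Adgre1* was at -0.55 (edgeR, adjusted p = 0.0772) and *Cd68* at -0.32 (edgeR, adjusted p = 0.365).

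Among the other macrophage genes, *Csf1r*, the receptor on which these cells depend, fell by 0.47 on the log2 scale with fracture (SE 0.071, edgeR, adjusted p = 0.00733), from 36.3 ± 1.53 CPM (SD, n = 6) in sham to 26.2 ± 3.40 CPM. It was the 1 gene that edgeR called among the 30 further macrophage genes, of which 24 had values below 0, with a median of -0.29. DESeq2 called 4 of them, *Csf1r*, *Tyrobp*, *Fcgr3* and *Ptprc*. Its ligands *Csf1* and *Il34* had log2 differences of 0.06 and -0.01. *Tyrobp*, the signaling adaptor of TREM2 and other receptors, was at -0.32 (edgeR, adjusted p = 0.120), *Stab1*, a scavenger receptor, at -0.25, and *Folr2*, a folate receptor of resident macrophages, at -0.33. *Cx3cr1*, the fractalkine receptor, and *Trem2*, a lipid receptor, had values of -0.02 and -0.01, and *Timd4*, a phosphatidylserine receptor, had 0.301 ± 0.0740 CPM in sham and 0.227 ± 0.151 CPM in fracture mice. The class II antigen presentation genes had 0 of 7 called by either tool and a median of -0.08.

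Monocyte genes were lower in fracture mice for 12 of 12, with a median of -0.73, and edgeR called 2 and DESeq2 5. *Plac8* fell by 1.38 (edgeR, adjusted p = 0.0171), from 11.9 ± 2.60 to 4.59 ± 1.62 CPM. *Plac8* is also expressed by trophoblast of the placenta, whose genes were lower in the same contrast, and the part of each source in its reads was not tested. *Fn1*, fibronectin, which is also made by fibroblasts, fell by 0.54 (edgeR, adjusted p = 0.0149). *Ccr2*, the chemokine receptor that defines inflammatory monocytes, had a value of -0.07 (95% interval -0.52 to 0.38). The 8 neuron genes had a median of 0.10, with 1 called by edgeR and 4 by DESeq2, and the 7 genes of satellite glia and Schwann cells had a median of -0.13, with 0 called by edgeR and 1 by DESeq2. *Nefh*, a neurofilament of large sensory neurons, rose by 0.22 (edgeR, adjusted p = 0.0126), from 2903 ± 137 to 3370 ± 145 CPM. The red blood cell genes had 0 of 6 called by edgeR and 1 by DESeq2, with a median of -0.53, and the lymphatic endothelial genes, which bear on *Lyve1*, had 0 of 6 called by either tool, with a median of -0.25.

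Among the partners of the scavenger receptors, edgeR called 2 for CD163 and 1 for LYVE1, and DESeq2 called 4 and 1. *Hmox1*, heme oxygenase, which degrades the heme that CD163 brings into the cell, fell by 0.45 with fracture (edgeR, adjusted p = 0.0140), from 40.9 ± 4.39 to 29.9 ± 2.95 CPM, and *Slc40a1*, the iron exporter ferroportin, fell by 0.59 (edgeR, adjusted p = 0.0207). These were 2 of 7 partners of CD163, all 7 with values below 0. Of 7 hyaluronan partners of LYVE1, *Cd44*, another hyaluronan receptor, rose by 0.24 (edgeR, adjusted p = 0.0481), and the median of the list was -0.23. Of 11 receptors and bridging proteins of efferocytosis, the uptake of apoptotic cells, *Mfge8*, which links phosphatidylserine to integrins, fell by 0.31 (edgeR, adjusted p = 0.0205). That list had a median of -0.22, with 1 gene called by edgeR and 3 by DESeq2.

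The classical complement proteases that follow C1q had 8 of 8 values below 0 with fracture, a median of -0.33 and 0 calls in edgeR, while DESeq2 called 2, *C1ra* and *Serping1*. *C1ra* and *C1s1*, the proteases of the C1 complex, were at -0.33 (edgeR, adjusted p = 0.126) and -0.33 (edgeR, adjusted p = 0.256), and *C2* was at -0.39, *C3* at -0.52 and *C4b* at -0.11. The partners of CD14 had 0 of 7 called by either tool and a median of -0.13, with *Tlr4* at -0.09 and *Ly96*, its coreceptor MD-2, at -0.16.

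Treatment with PDX did not change a marker at an adjusted p under 0.05 (edgeR). Of the 20562 genes tested between fracture plus PDX and fracture, edgeR called 0 (0%) and DESeq2 called 15, and 0 of the 10 markers were called by either tool. Before adjustment, 1113 genes (5.41%) had a p under 0.05 in edgeR, and 1 of the 10 markers did. Below 0 were 2 of the 10 markers and 50.0% of all genes, and the median of the markers was 0.14.

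That 1 marker was *Adgre1*, the gene called with fracture. It was at 3.78, 5.47 and 6.13 CPM (lowest, median and highest of 6) with PDX and at 3.52, 4.15 and 4.75 CPM with vehicle, and 4 of 6 PDX mice lay above every fracture mouse. The log2 difference was 0.30 (95% interval 0.01 to 0.59, edgeR, p = 0.0419, adjusted p = 0.912), and the exact permutation test gave p = 0.0606. Both comparisons use the same fracture mice, so the values on either side of them are not independent.

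The C1q chains lay higher with PDX by 0.21 (95% interval -0.09 to 0.51) for *C1qa*, 0.28 (-0.04 to 0.61) for *C1qb* and 0.25 (-0.13 to 0.62) for *C1qc* on the log2 scale. *C1qb* was at 8.78, 12.1 and 13.7 CPM with PDX and at 7.18, 9.45 and 12.4 CPM with vehicle (exact permutation test, p = 0.0909). The lowest PDX mouse for all C1q chains was male replicate 1, and without it the values were 0.30, 0.35 and 0.34 and passed no test (edgeR, adjusted p = 0.913, 0.913 and 0.928). That library also had the highest summed neutrophil genes, 540 CPM, and the highest summed red blood cell genes, 2854 CPM, of the 18 libraries. Their part in the C1q values was not tested.

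*Aif1* had the widest interval, with a log2 difference of 0.54 from -0.15 to 1.23, and values of 2.37, 4.10 and 5.49 CPM with PDX. *Cd68*, *Mrc1* and *Cd14* had log2 differences of 0.07, 0.07 and 0.02, with intervals from -0.25 to 0.38, from -0.15 to 0.29 and from -0.28 to 0.32, and leaving out single mice turned the sign of *Cd68* and of *Cd14*. *Cd163* and *Lyve1* lay in the other direction. *Cd163* was at 4.04, 6.40 and 6.86 CPM with PDX, with a log2 difference of -0.33 (-0.73 to 0.07), and the groups overlapped. *Lyve1* was at 4.92, 5.76 and 6.49 CPM with PDX and at 5.47, 6.38 and 7.80 CPM with vehicle, with a log2 difference of -0.20 (-0.41 to 0.0016).

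Of the other macrophage and partner genes, edgeR called 0 with PDX. Of 30 further macrophage genes 21 were higher, with a median of 0.14 and 0 called by edgeR. *Tyrobp* was at 3.53 ± 0.351 CPM (SD) with vehicle and 5.13 ± 1.01 CPM with PDX (log2 difference 0.54, edgeR, adjusted p = 0.811). *C3* was at 0.58 (edgeR, adjusted p = 0.887), *Cx3cr1* at 0.37, *Ccr2* at 0.30, *Csf1r* at 0.13 and *Hmox1* at 0.07. Class II genes were higher in 7 of 7 with a median of 0.17. Neutrophil genes were higher in 14 of 14 with a median of 1.02, monocyte genes in 10 of 12 with a median of 0.61 and red blood cell genes in 6 of 6 with a median of 0.28, while muscle and placental genes were lower in 8 of 8 each, with medians of -1.91 and -0.50. None of these lists had a gene called by edgeR. DESeq2 called 1 gene of them, the monocyte and neutrophil integrin *Itgam*, which was at 4.36 ± 1.03 CPM with vehicle and 8.25 ± 3.07 CPM with PDX (log2 difference 0.92, 95% interval 0.38 to 1.46, edgeR, adjusted p = 0.811). It gave an adjusted p to 21 of the 30 further macrophage, 6 of 7 class II, 11 of 14 neutrophil, 11 of 12 monocyte, 5 of 6 red blood cell, 8 of 8 muscle and 4 of 8 placental genes, and left that of the others as missing. The part of these lists in the marker values was not tested.

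Against sham, *Cd68* lay lower in fracture plus PDX mice. It was at 4.51, 5.54 and 7.11 CPM with PDX against 6.69, 7.21 and 8.49 CPM in sham, and 5 of 6 PDX mice lay below every sham mouse (log2 difference -0.40, 95% interval -0.64 to -0.15, edgeR, adjusted p = 0.0677; DESeq2, adjusted p = 0.0150). Of 20574 genes tested, edgeR called 4.50%, which included 0 of the 10 markers, and DESeq2 called 1620 genes and 1 marker. Values below 0 were found for 6 of the 10 markers and 50.4% of all genes. *Adgre1* was at -0.25 (-0.53 to 0.02) and *Lyve1* at -0.32 (-0.59 to -0.05; edgeR, adjusted p = 0.189). Without sham male replicate 1, which had the lowest *Lyve1* of the 18 mice at 4.05 CPM, *Lyve1* was at -0.43 (edgeR, adjusted p = 0.0148), and without PDX female replicate 1 *Cd68* was at -0.49 (edgeR, adjusted p = 0.0220). *C1qa*, *C1qb* and *C1qc* were at 0.06, 0.12 and 0.0012, and the signs of *C1qa* and *C1qc* turned when single mice were left out. The placental genes were lower in 8 of 8, with 7 called by each tool and a median of -2.22. This comparison shares its mice with the comparisons above and is given beside them only.

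Males had lower levels of *Cd163* and *Lyve1* than females, but these differences passed the test in DESeq2 alone. *Cd163* was at 3.50, 5.67 and 7.13 CPM (lowest, median and highest of 9) in males and at 3.96, 7.92 and 14.3 CPM in females, with a log2 difference of -0.67 (95% interval -1.13 to -0.21). Its adjusted p was 0.244 in edgeR and 0.0398 in DESeq2. *Lyve1* was at 4.05, 5.66 and 6.88 CPM in males and at 5.67, 7.62 and 9.11 CPM in females, with a log2 difference of -0.35 (-0.56 to -0.14). Its adjusted p was 0.168 in edgeR and 0.0464 in DESeq2. Lower male means in 3 of 3 groups were found for 6 of the 10 markers, *Adgre1*, *Cd163*, *C1qa*, *C1qb*, *C1qc* and *Lyve1*, and for 15.2% of the genes tested. All 3 males lay below all 3 females in 1 or more groups for 5 markers and for 19.0% of the genes tested. These were *Lyve1* in sham and in fracture plus PDX mice, *Adgre1* and *C1qb* in sham mice, *Cd163* in fracture mice and *Mrc1* in fracture plus PDX mice. Over all genes tested, this separation was found within sham for 7.27%, within fracture for 6.59%, within fracture plus PDX for 6.84%, and in 2 or more groups, as for *Lyve1*, for 1.62%.

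Between the sexes, edgeR called 0.297% of 20527 genes and 0 of the 10 markers, and DESeq2 called 330 genes and 2 markers. An unadjusted p under 0.05 was found for 3 markers (*Cd163*, *Lyve1* and *Mrc1*) and for 10.4% of all genes. All 10 markers had a log2 difference below 0, as did 50.5% of all genes, and their median was -0.15. *Cd68*, *Cd14* and *Aif1* were the closest to equal, with -0.0071, -0.05 and -0.06, and leaving out single mice turned the sign of each. Muscle genes, with 8 of 8 lower in males and a median of -1.22, moved the same way, and 0 of them were called by either tool. Of the 11 efferocytosis genes, the bridging ligand *Gas6* was called, at 230 ± 12.4 CPM in males and 254 ± 6.02 CPM in females (SD, n = 9; edgeR, adjusted p = 0.0309).

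The effect of fracture was not shown to differ between males and females for a marker. The interaction of sex with fracture was called for 0 of 20659 genes (0%), with 1488 genes at an unadjusted p under 0.05 in edgeR and 65 genes called by DESeq2. The lowest adjusted p of a marker was 0.810 in edgeR. For the interaction of sex with PDX, edgeR called 1 of 20562 genes (0.00486%), *Xntrpc*, which is no marker, and DESeq2 called 8, with a lowest marker adjusted p of 0.998 in edgeR. For *Adgre1* and fracture the interaction was 0.20 on the log2 scale with an interval from -0.22 to 0.62.

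From mouse to mouse, *Adgre1*, the C1q chains, *Mrc1*, *Cd14* and *Cd68* varied together, while *Aif1*, *Cd163* and *Lyve1* did so less clearly. Correlations were computed on the deviations of log2 CPM from the means of group and sex, for 48 relations over 18 mice. Of the 45 pairs of markers 37 were positive, with a median r of 0.34, and 18 had an adjusted permutation p under 0.05. These 18 were among the 21 pairs of the 7 markers first named, a grouping made after the values were seen, and 0 were among the other 24 pairs, whose r lay between -0.27 and 0.48. Of the 21, *Mrc1* did not pass with *Cd68* (r = 0.22, permutation test, adjusted p = 0.522) or *Adgre1* (r = 0.49, permutation test, adjusted p = 0.0895). Nor did *Cd68* with *C1qc* (r = 0.52, permutation test, adjusted p = 0.0696). The marker outside C1q closest to it was *Adgre1*, with r = 0.83 to *C1qa* (permutation p = 3e-05, adjusted p = 0.00036; rho = 0.83; r = 0.82 without the 2 farthest libraries). *Mrc1* followed *C1qc* at r = 0.78 (permutation p = 7e-05, adjusted p = 0.000672; rho = 0.79; r = 0.67) and *Cd14* at r = 0.71 (permutation p = 0.0012, adjusted p = 0.00576; rho = 0.70; r = 0.60). *Cd68* was less tightly related, with r = 0.59 to *Adgre1* (permutation p = 0.0098, adjusted p = 0.0336; rho = 0.63; r = 0.56) and r = 0.56 to *Cd14* (permutation p = 0.016, adjusted p = 0.0452; rho = 0.53), the latter falling to 0.31 without the 2 farthest libraries. *C1qa* and *Csf1r* correlated at r = 0.77 (permutation p = 0.00017, adjusted p = 0.00117; rho = 0.74; r = 0.63). All libraries share the same kind of ganglia and a common scaling. The permutations treated the 18 deviations as independent although means of group and sex had been removed. The permutation p-values are therefore too small, and pairs with an adjusted p just under 0.05 may not hold.

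**Figure D5:**
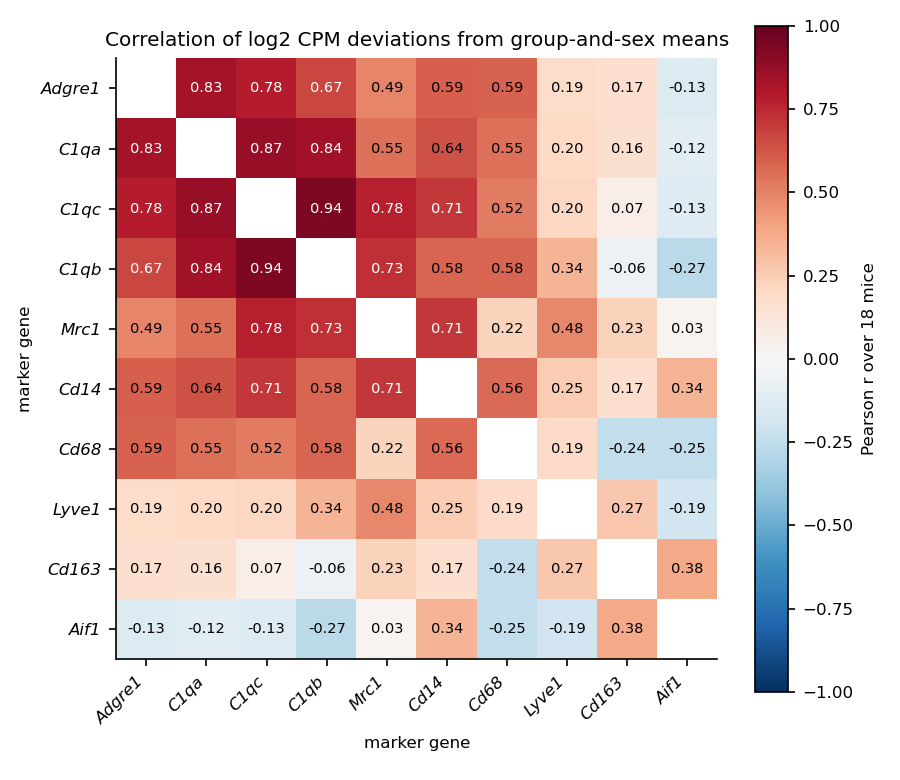
Pearson r between each pair of markers over the 18 mice, after the means of group and sex were removed from log2 CPM, on a color scale from -1 to 1. The block of *Adgre1*, C1q chains, *Mrc1*, *Cd14* and *Cd68* is positive throughout, with 0.94 for *C1qb* and *C1qc*, and no value in the row of *Cd163* is above 0.38.

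*Lyve1* had r = 0.23 to *Prox1*, the transcription factor of lymphatic endothelium (permutation p = 0.35, adjusted p = 0.522; rho = 0.22; r = 0.30), and *Prox1* itself was at 0.284 CPM on average in sham mice. Its highest relation to a marker was to *Mrc1*, at r = 0.48 (permutation p = 0.041, adjusted p = 0.0895; rho = 0.60, adjusted p = 0.03; r = 0.38). *Cd163* had no relation to a marker that passed the test, its highest r being 0.38 to *Aif1* (permutation p = 0.12, adjusted p = 0.25; rho = 0.40; r = 0.32). *Cd14* and the neutrophil gene *S100a8* had r = -0.29 (permutation p = 0.24, adjusted p = 0.443; rho = -0.25; r = -0.49).

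Over all 21339 other genes, the patterns nearest to each marker in log2 CPM across the 18 libraries, with group differences left in, were named by Pearson r as a description. For *C1qc* these were *C1qb* (0.93), *C1qa* (0.89) and the lysosomal protease *Ctss* (0.86), and for *C1qa* and *C1qb* they were the other chains, followed by *Cldnd2* (0.86) and *Ppil1* (0.84). *Adgre1* was nearest to *Csf1r* (0.86), then *Gm20627* (0.83) and *Ttc30a2* (0.80). *Mrc1* was nearest to *Gstm2* (0.90), *Apod* (0.86) and *Gpx7* (0.85), and *Cd68* to *Tmem45a* (0.83), *Mdfi* (0.82) and *Ninj1* (0.81). *Cd163* was nearest to the nuclear long noncoding RNA *Neat1* (0.86), the metallothionein *Mt2* (0.84) and *Ccdc65* (0.83). *Lyve1* was nearest to the splicing kinases *Clk1* (0.89) and *Clk4* (0.89) and to *Ces2e* (0.87), *Cd14* to *Clic4* (0.86), *Eef1a1* (0.82) and *Gm10241* (0.82), and *Aif1* to *Gm19710* (0.79), *Snrpg* (0.76) and *Brd2* (0.75). Of the 7 markers other than the C1q chains, *Adgre1* alone had a gene of the fixed macrophage list among its nearest 3.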

How the data were processed

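Poly(A)-selected, stranded libraries of bulk L3–L5 DRG from 18 mice, 6 per group, were used, with groups and sexes from the sample labels. The table's columns for the 6 sham libraries are headed Con rather than Sham, and were assigned to sham as the only columns without fracture, by the sex and replicate number in their names. The authors deposited raw counts per gene, without normalization, and FPKM, scaled by transcript length and mapped fragments. The submitters' processing notes name cutadapt 1.10, FastQC, HISAT2, StringTie and build mm10, without the role of each. The counts were fitted here with edgeR 4.0.16 under R 4.3.3 (filterByExpr with minimum count 10 and total 15, TMM, robust quasi-likelihood test, sex as covariate, the 12 libraries of a comparison) and p-values were Benjamini-Hochberg adjusted over all genes, called under 0.05. Males and females were compared over 18 libraries with group as covariate. Exact two-sided permutation tests and correlations used log2 CPM with a prior count of 2. The edgeR fit of fracture plus PDX against fracture was also run on simulated counts, with no outcome given here, and the other fits were not. Alternatives were DESeq2 1.42.0, limma 3.58.1 on log2(FPKM + 1) and log2(FPKM + 0.1), which understates changes of low genes, upper-quartile scaling, other filters and covariates, a replicate block and leaving out each library. Each member had at least 95 counts per library, and no other deposited gene overlaps a member. Libraries of the same group differed beyond counting noise in all 15 pairs of each group.

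The markers and the 16 lists of related or foreign genes were chosen with earlier results of these data known, so lists are described by counts and medians with no test. Genes named are the 10 markers, fixed partners, at most 4 called genes per list and direction, and the 3 nearest patterns of each marker. *Xntrpc*, *Prox1* and *S100a8* were named outside this rule, the latter pair for fixed correlations, as were *Itgam*, *Fcgr3*, *Ptprc* and *Serping1*, after their calls in DESeq2 were seen.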

Additional observations from a re-analysis of the deposited data

Results flagged for a closer look

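*C1qa* in fracture plus PDX male replicate 1 was at 10.3 CPM, below the other 5 mice of its group, which lay between 15.9 and 18.03 CPM. Its gap to the nearest mouse was 0.724 of the range of the group. It was the 1 value marked among 30 groups checked (10 markers in 3 groups), and chance alone marks about 1 group in 20. The same mouse was also the lowest of its group for *Adgre1*, *C1qb*, *C1qc*, *Mrc1*, *Cd14* and *Cd163*, with 3.78, 8.78, 8.11, 13.6, 3.49 and 4.04 CPM. It had the highest summed levels of neutrophil genes, 540 CPM, and of red blood cell genes, 2854 CPM, among the 18 mice, and their part in its values was not tested.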

How the results depend on the processing

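The call of *Adgre1* after fracture was kept in all 12 fits that left out a library (1 marker called in each), with DESeq2, upper-quartile scaling, other filters, no sex covariate, all 18 libraries and both FPKM fits (-0.34 with a pseudocount of 1, which shrinks low genes). It was lost with the placental covariate (-0.45), the muscle covariate (-0.55) and the replicate block (-0.56, edgeR, adjusted p = 0.0591), which called 0 markers each. The placental covariate largely followed the groups, and its part cannot be told apart from that of fracture. Mice of the same number were not shown to be pairs, since their deviations correlated between -0.07 and 0.13. Between fracture and sham, genes called were 1511 with DESeq2 (2 markers), 118 with the replicate block, 1 with the placental and 47 with the muscle covariate, and 213 (without fracture female replicate 2) to 710 without single libraries. Signs turned for *Cd163* (0.045 with the replicate block, 0.0015 with limma and a pseudocount of 1 on FPKM, 0.033 with that of 0.1; -0.19 to 0.12 without single libraries) and for *C1qa* (0.15 with the placental covariate). Between fracture plus PDX and fracture, DESeq2 called 15 genes, and leaving out libraries gave 0 to 1 genes and 0 markers. There *Cd68* was at -0.071 with the muscle covariate, and without single libraries *Cd68* was at -0.017 to 0.15 and *Cd14* at -0.064 to 0.099. Between fracture plus PDX and sham, genes called were 1620 with DESeq2, 486 with the replicate block, 0 with the placental covariate and 498 to 1008 without single libraries; markers called were 1 with DESeq2 and with both FPKM fits (*Cd68*) and 0 to 1 without single libraries. *C1qc* was there at -0.00352 with no filter, -0.00304 with at least 10 counts in every library, -0.019 with the replicate block, -0.029 and -0.036 in the FPKM fits, -0.078 with the placental covariate and -0.10 to 0.10 without single libraries, and *C1qa* at -0.0090 to 0.15. Between males and females, genes called were 330 with DESeq2 (2 markers), 31 with no group covariate, 34 with the muscle covariate and 25 to 79 without single libraries. *Cd68* was there at 0.0073 with no group covariate and at -0.057 to 0.051 without single libraries, *Aif1* at -0.27 to 0.059 and *Cd14* at -0.089 to 0.011. DESeq2 called 65 and 8 genes for the interactions of sex with fracture and with PDX. The cause of these changes was not tested. Of the markers, *Aif1* had the lowest count in a library, 95.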
